A study of Mus musculus with 6 samples.

Results

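The 6 genes Tpt1, Naca, Btf3, Rack1, Fau and Nap1l1 were followed in RNA-seq of dorsal root ganglia, the paired clusters of sensory neurons and glia beside the spinal cord, from male mouse embryos at E13.5. They were chosen by name as known 5′ terminal oligopyrimidine (TOP) mRNAs whose symbols do not begin with Rps or Rpl, and all 6 were found among the 17971 genes measured and among the 14338 with enough counts to be tested. The 3 cKO libraries came from Wnt1-cre+/-;Ybx1fl/fl embryos, in which Cre recombinase, made under Wnt1 control in the neural crest lineage, removes floxed Ybx1. The 3 Ctrl libraries came from Ybx1fl/fl littermates, which carry the same floxed alleles and no Cre, so what Cre itself does and what the missing Ybx1 does cannot be told apart. Titles number the libraries 1 to 3 in each group, and libraries with the same number were taken as pairs, which the titles do not state.

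A TOP mRNA begins at its cap with a C followed by an unbroken stretch of pyrimidines. Such mRNAs encode most of the machinery of translation, and the kinase mTORC1 and the cap-binding protein LARP1 control together how strongly they are translated and how stable they are. The product of Ybx1, YB-1, is an RNA-binding protein of the cold-shock family. Rack1 and Fau encode parts of the small ribosomal subunit under names of their own, so the members are non-ribosomal by symbol and not all by function.

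The pyrimidine stretch that gives the class its name was looked for at the transcript starts annotated by RefSeq in GRCm38.p6. Each line below holds the strand of the mRNA from 10 bases before the annotated start to 20 bases from it. Capitals mark a C followed by at least 4 pyrimidines (C or T), at the start or nearest to it.
Rack1: gccgctctttCTTTTTCTCCacagggtcgt
Fau: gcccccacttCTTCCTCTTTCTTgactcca
Nap1l1: gctctcgggtCTTTTTTagcgccatctgct
Naca: tcgttCTCTTaaagaggaaacccggacgcc
Btf3: tctggaggaagtggcgtcgcgttaCTTCCg
Tpt1: cgctgacgacagttccgggggagccgcgga

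The stretch began exactly at the annotated start in Rack1 (10 bases), Fau (13 bases) and Nap1l1 (7 bases), or 3 of 6 members. Annotated starts need not be the main cap sites in these ganglia, and no start-site data were used here. The Nap1l1 start read is the single one in the promoter table, and it lies inside the gene's annotated span, whose outermost start is further upstream. Of 32851 start windows in the table, 2.51% had the stretch exactly at the start. By gene, with any of its starts counted, 3.01% of 27025 genes had it there. It was there in 22.8% of 57 ribosomal protein genes with a start in the table. Among 18 other TOP genes outside the ribosomal proteins, the share was 11.1%. In Naca the stretch began 5 bases before the annotated start, and in Btf3 it lay 14 bases after it. A second Btf3 start in the table and the single Tpt1 start had no such stretch within the 30 bases, which says only that these letters are not in that window. A stretch of this kind somewhere in the 30 bases was common, at 35.8% of all windows. The windows lie on the forward strand at chr11:48800350-48800379 (Rack1), chr19:6057937-6057966 (Fau), chr10:111473217-111473246 (Nap1l1), chr10:128035336-128035365 (Naca) and chr14:75845246-75845275 (Tpt1), and on the reverse strand at chr13:98316987-98317016 (Btf3). The CCAAT box, read as CCAAT or ATTGG on either strand, was found in the 300 bases around the start of 1 member, Nap1l1, 232 bases before its start, against 37.4% of all such windows.

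Library depth was 16464264 to 17446385 estimated counts. Ybx1 was lower in each library labelled cKO, at 137, 122 and 108 CPM (counts scaled to library size, here with TMM factors), against 927, 809 and 817 CPM in Ctrl, so genotypes went with their labels. Neuronal markers were abundant in both groups, and the 8 listed summed to 10888 to 11040 CPM in cKO and 10875 to 11575 CPM in Ctrl. With the block, 2 of these 8 were lower in cKO, Isl1 (log2 fold change -0.21, edgeR adjusted p 0.00833) and Stmn2 (-0.20, 0.00858), and their part in the results on the members was not tested. Both libraries numbered 1 stood apart from the other 4 along the first principal component (30.4% of variance), and cKO replicate 1 held 10681 CPM of erythroid markers, against 2598 to 4607 CPM in the other 5 libraries. Without both of them the number of genes called was 731 in place of 69 with no replicate block, so each result on a member is also given without them where its call moves.

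Levels were first compared between members in TPM, a unit scaled for transcript length and library size. Tpt1, which encodes the abundant growth-related protein TCTP, was highest, at 3881, 3535 and 3389 TPM in cKO against 4244, 3916 and 3837 TPM in Ctrl, and its mean over the 6 libraries was the 20th highest of all genes. Fau stood at 1887 to 2044 TPM in cKO and 1994 to 2153 TPM in Ctrl. Naca had 739 to 778 TPM in cKO and 737 to 767 TPM in Ctrl. Nap1l1 was the lowest member, at 280 to 301 TPM in cKO and 273 to 281 TPM in Ctrl, and was still the 490th of all genes.

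The order of Btf3 and Rack1 differed between the genotypes. In cKO, Rack1 had 1031, 962 and 950 TPM and Btf3 1173, 1137 and 1156 TPM, so Rack1 was below Btf3 in all 3 libraries. In Ctrl, Rack1 had 1323, 1217 and 1144 TPM and Btf3 1130, 1092 and 1088 TPM, so Rack1 was above Btf3 in all 3. Over the 6 libraries these were the only neighbours in the order whose ranges overlapped. The 6 members together made up 0.919%, 0.856% and 0.847% of all TPM in cKO libraries, against 0.989%, 0.929% and 0.908% in Ctrl.

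**Figure D1:**
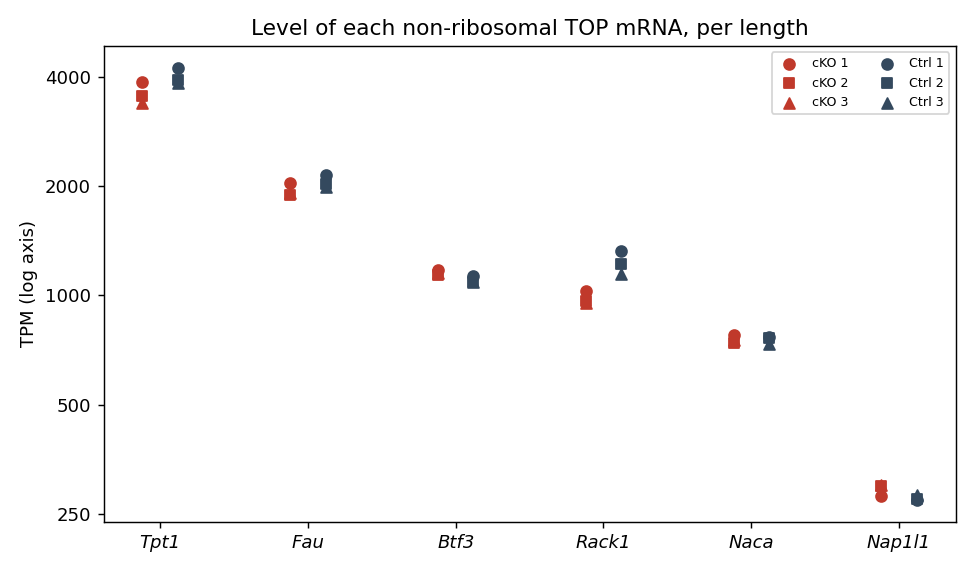
Level of each member in TPM (log axis) in every library, with cKO in red left of Ctrl in dark blue and the marker shape giving the replicate number. Members run from the highest mean, Tpt1, to the lowest, Nap1l1, and Rack1 lies below Btf3 in the cKO libraries and above it in the Ctrl libraries.

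The comparison of cKO with Ctrl asked which mRNAs differed between the genotypes in these ganglia. The main model, with genotype only, called no member. In the alternative model, with the replicate number as a block, the members split. Rack1 and Tpt1 fell in cKO there, and Fau lay below Ctrl without passing the test. Naca and Btf3 had changes near 0, and Nap1l1 lay slightly above Ctrl without passing. With the block, 2 of 6 members were called lower and none higher, where 3.56% of all genes were called lower and 1.76% higher (5.33% in either direction). With library totals as the scaling, the blocked model called 396 genes higher and 403 lower, in place of 253 higher and 511 lower, and 1 member lower. Without the block, edgeR called 0 of 6 members at an adjusted p under 0.05, where 0.481% of all genes were called in either direction and 0.37% lower. The edgeR adjusted p without the block was 0.788 for Fau, 0.983 for Naca, 0.897 for Btf3 and 0.814 for Nap1l1. At an unadjusted p under 0.05, 1 of 6 (Rack1) passed without the block, where 10.7% of all genes did, and DESeq2 called 1, Rack1 (adjusted p 0.0469). The median log2 fold change of the members was -0.05 without the block and -0.06 with it, beside a median of 0.00 over all genes in both. In tissue of mixed cells, fewer cells of a type and less RNA per cell cannot be told apart.

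**Figure D2:**
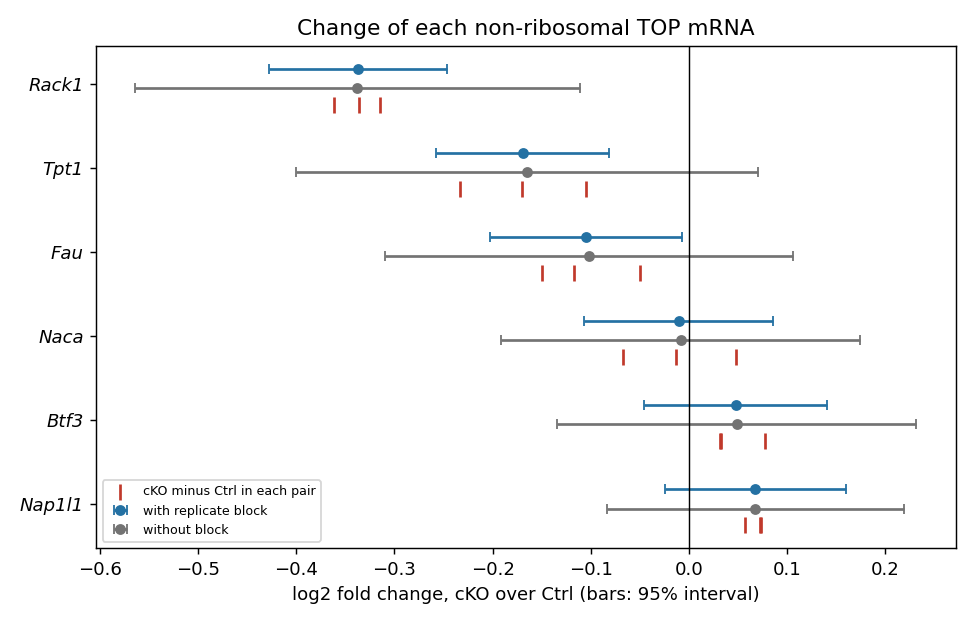
Log2 fold change of each member, cKO over Ctrl, with 95% intervals from edgeR with (blue) and without (grey) the replicate block, and the difference within each numbered pair as red ticks. The interval with the block lies wholly below 0 for Rack1, Tpt1 and Fau, and spans 0 for Naca, Btf3 and Nap1l1.

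Rack1 encodes a WD-repeat scaffold protein that sits on the head of the small ribosomal subunit and also binds protein kinase C. The gene lies on chromosome 11 at 48800360 to 48806241 (forward strand, GRCm38; gene identifier 14694). Its mRNA stood at 604, 502 and 494 CPM in cKO libraries 1 to 3, against 762, 645 and 615 CPM in Ctrl libraries 1 to 3. Every cKO library was below every Ctrl library, a separation that 8.77% of all genes showed in that direction and 16.6% in either. The means were 534 ± 61.1 CPM in cKO and 674 ± 77.9 CPM in Ctrl (SD, n = 3 each), or 0.791-fold. The pairs differed by -0.34, -0.36 and -0.31 on the log2 scale, much closer to each other than the libraries of a group. The log2 fold change was -0.34 in both models. With the block its SE was 0.04 and the edgeR adjusted p 0.000306. Without the block the SE was 0.10 and the adjusted p 0.223. With both libraries numbered 1 left out, the log2 fold change was again -0.34, and Rack1 passed without the block (edgeR adjusted p 9.08e-05) and with it (2.11e-09). The call with the block also held under 3 other scalings, with an offset for transcript length and without either of the other pairs (8 of 8 blocked settings, edgeR adjusted p up to 0.00904).

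Tpt1 (chromosome 14, 75845256 to 75848303, forward strand; gene identifier 22070) encodes TCTP, a conserved protein tied to growth and survival. It had 1424, 1154 and 1100 CPM in cKO, against 1532, 1299 and 1294 CPM in Ctrl. Within each number the cKO library was the lower one, but cKO replicate 1 lay above Ctrl replicates 2 and 3, so the groups overlapped. The means were 1226 ± 174 CPM in cKO and 1375 ± 136 CPM in Ctrl (SD, n = 3 each). The pairs differed by -0.10, -0.17 and -0.23. With the block the log2 fold change was -0.17 (SE 0.04, edgeR adjusted p 0.0270), and without it -0.16 (SE 0.11, adjusted p 0.661). Leaving out both libraries numbered 1 gave -0.20, which passed also without the block (edgeR adjusted p 0.0148). The blocked call was lost with library totals as the scaling (-0.14, adjusted p 0.0559), without the libraries numbered 2 (-0.17, 0.261) and without those numbered 3 (-0.14, 0.119).

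Fau (chromosome 19, 6057947 to 6059524, forward strand; gene identifier 14109) encodes a ubiquitin-like protein fused to the ribosomal protein S30, which are split after translation. It stood at 281, 230 and 229 CPM in cKO and 291, 249 and 254 CPM in Ctrl. Each cKO library was below its paired Ctrl library, while the groups overlapped through cKO replicate 1. The log2 fold change with the block was -0.10 (SE 0.05, 95% interval -0.20 to -0.01), and the edgeR adjusted p was 0.229. In all 8 blocked settings it was negative and not called. All 3 pairs were lower for Rack1, Tpt1 and Fau, a pattern that 20.3% of all genes showed.

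Naca and Btf3 encode the alpha and beta subunits of the nascent polypeptide-associated complex, a heterodimer that meets new protein chains at the ribosome exit. Naca (chromosome 10, 128035346 to 128048637, forward strand; gene identifier 17938) had 396, 335 and 342 CPM in cKO and 383, 351 and 345 CPM in Ctrl. It was higher in the cKO library of pair 1 and lower in those of pairs 2 and 3, by 0.05, -0.07 and -0.01 on the log2 scale. Its log2 fold change with the block was -0.01, with a 95% interval of -0.11 to 0.09 and an edgeR adjusted p of 0.929. Its sign changed with the scaling, and was positive with library totals. The effective length of Naca, worked out from the deposited counts and FPKM, was 833 to 842 bases in every library. That of Rack1, with a single coding transcript of 1447 bases in GENCODE M21, ran from 957 to 965 bases. Moves of this size therefore need not come from isoforms, and effective length can lie well below transcript length. GENCODE M21 lists a Naca transcript of 885 bases and one of 6745 bases, the kind known from skeletal muscle. Which of them was counted was not tested.

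Btf3 (chromosome 13, 98309897 to 98317006, reverse strand; gene identifier 218490) had 428, 368 and 373 CPM in cKO and 405, 360 and 364 CPM in Ctrl. All 3 pairs were higher in cKO, by 0.08, 0.03 and 0.03 on the log2 scale, and the groups overlapped in CPM. With the block the log2 fold change was 0.05 (SE 0.04, 95% interval -0.05 to 0.14, edgeR adjusted p 0.616). Without the block and without cKO replicate 1 it was -0.02. The TPM of Naca per TPM of Btf3 was 0.663, 0.651 and 0.654 in cKO, against 0.679, 0.697 and 0.677 in Ctrl. The ratio was therefore lower in each cKO library than in each Ctrl library, by a small margin that received no test of its own. Such separation was common. By counts in place of TPM, 12.5% of all genes set against Btf3 had groups that did not overlap in either direction, and 11.2% set against Naca.

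Nap1l1 (chromosome 10, 111472882 to 111498150, forward strand; gene identifier 53605) encodes a histone chaperone that carries H2A-H2B dimers. It had 493, 470 and 474 CPM in cKO and 469, 447 and 456 CPM in Ctrl. Every cKO library was above every Ctrl library by this measure, though not in TPM, where cKO replicate 1 (280 TPM) lay below Ctrl replicate 3 (281 TPM). Groups that did not overlap in CPM were found for 16.6% of all genes in either direction. These include 8.77% of all genes with cKO lower, and the rest had cKO higher, as Nap1l1 did. The pairs differed by 0.07, 0.07 and 0.06 on the log2 scale. With the block the log2 fold change was 0.07 (SE 0.04, 95% interval -0.02 to 0.16) and the edgeR adjusted p 0.429, so the difference did not pass. It was positive in all 8 blocked settings. All 3 pairs were higher for Btf3 and Nap1l1, as for 19.6% of all genes. Nap1l1 is known to be made from mRNAs of several lengths, and its effective length ran from 2869 to 2941 bases with no split by genotype, at 2891, 2896 and 2898 bases in cKO and 2869, 2941 and 2908 bases in Ctrl.

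**Figure D3:**
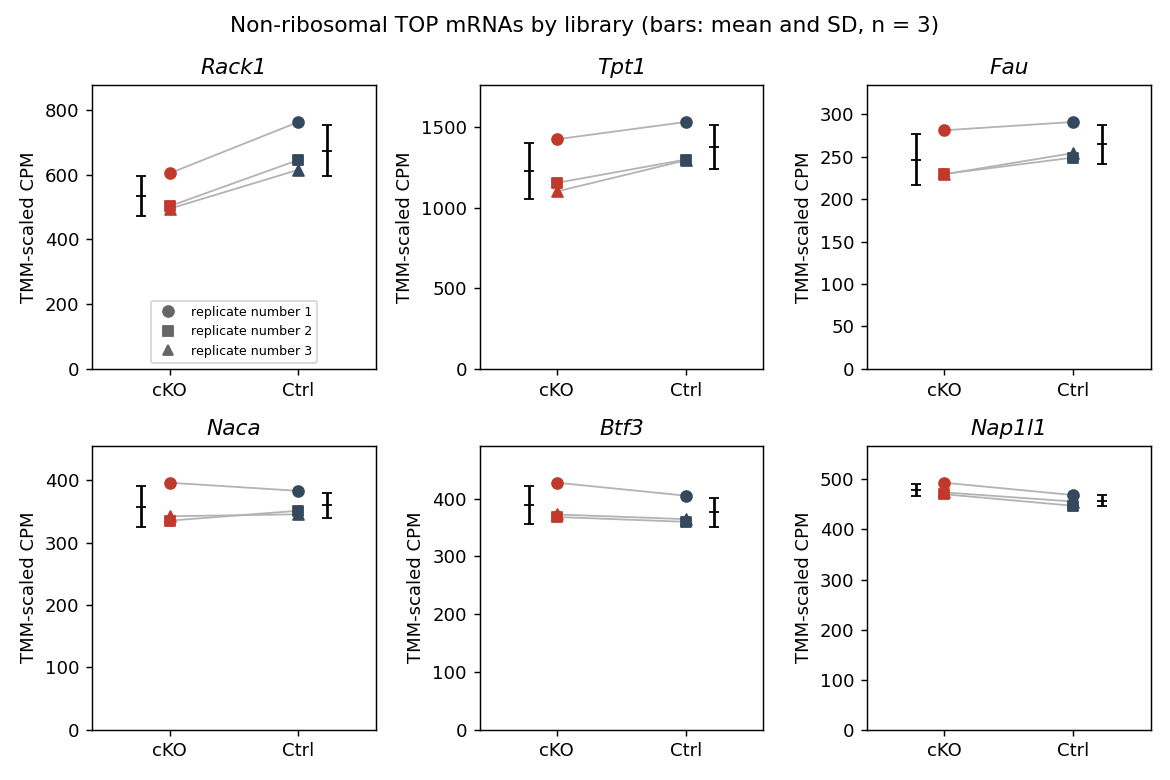
TMM-scaled CPM of each member, with cKO libraries in red left of Ctrl libraries in dark blue and lines joining libraries of the same replicate number. Bars give the mean and SD of 3 libraries. For Rack1 the lines run nearly parallel and the groups are apart, while for Tpt1 and Fau cKO replicate 1 reaches into the Ctrl range.

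By CPM, the libraries numbered 1 carried more of each member mRNA in both genotypes. By TPM this held for 5 of 6 members, and Nap1l1 was instead lowest in library 1 of each genotype. On the log2 CPM scale, cKO replicate 1 stood above the mean of cKO replicates 2 and 3 by 0.34 for Tpt1, 0.29 for Fau, 0.28 for Rack1, 0.23 for Naca, 0.21 for Btf3 and 0.06 for Nap1l1. Ctrl replicate 1 stood above Ctrl replicates 2 and 3 by 0.24, 0.21, 0.28, 0.14, 0.16 and 0.05 for the same genes. Nap1l1, whose mRNA is the longest of the 6, moved least. For Rack1 this offset was close in size to the difference between genotypes, and the block takes it up.

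Other cell types also differed between libraries. All 8 macrophage markers had positive log2 fold changes, with sums of 173, 120 and 120 CPM in cKO and 100, 102 and 117 CPM in Ctrl. Of these 8, 1 was called higher without the block and 2 with it. The 7 markers of satellite glia and the Schwann lineage summed to 1415, 1322 and 1313 CPM in cKO and 1312, 1218 and 1207 CPM in Ctrl, and 4 of 7 rose with the block. The 9 erythroid markers summed to 10681, 2598 and 4228 CPM in cKO and 4525, 3113 and 4607 CPM in Ctrl. Sums for skeletal muscle, over the 5 of 9 markers tested, were 6.65 to 9.86 CPM in cKO and 7.32 to 8.95 CPM in Ctrl. Endothelium had 368 to 413 CPM in cKO and 388 to 399 CPM in Ctrl. Mesenchyme and meninges had 2034 to 2182 CPM in cKO and 1815 to 2148 CPM in Ctrl. Spinal cord, over the 2 of 7 markers tested, had 1.81 to 2.74 CPM in cKO and 1.31 to 2.02 CPM in Ctrl. Of those 2 markers, 1 was called higher in both models. None of the 24 macrophage, glial and erythroid markers was at 0 in any library, and whether they bear on the members' values was not tested.

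Ratios of counts within a library need no scaling between libraries, and were added after the values had been seen. Rack1 had 1.53, 1.499 and 1.44 counts per count of Naca in cKO, against 1.99, 1.84 and 1.78 in Ctrl. Per count of Btf3 it had 1.41, 1.36 and 1.33 in cKO and 1.88, 1.79 and 1.69 in Ctrl. Per count of Nap1l1 the values were 1.22, 1.07 and 1.04 in cKO and 1.63, 1.44 and 1.35 in Ctrl. Per count of Fau they were 2.15, 2.19 and 2.16 in cKO and 2.62, 2.59 and 2.42 in Ctrl. Per count of Tpt1 they were 0.424, 0.435 and 0.449 in cKO and 0.498, 0.497 and 0.475 in Ctrl.

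Rack1 was thus lower in every cKO library relative to each of the other 5 members. The log2 difference, cKO minus Ctrl, was -0.41 against Nap1l1, -0.39 against Btf3, -0.33 against Naca, -0.23 against Fau and -0.17 against Tpt1. Each of these 5 comparisons gave an exact two-sided permutation p of 0.1, the smallest that 3 against 3 libraries allow, so none can pass 0.05. Set against Naca in the same way, 11.2% of all genes had groups that did not overlap, and set against Nap1l1, 20% had.

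**Figure D4:**
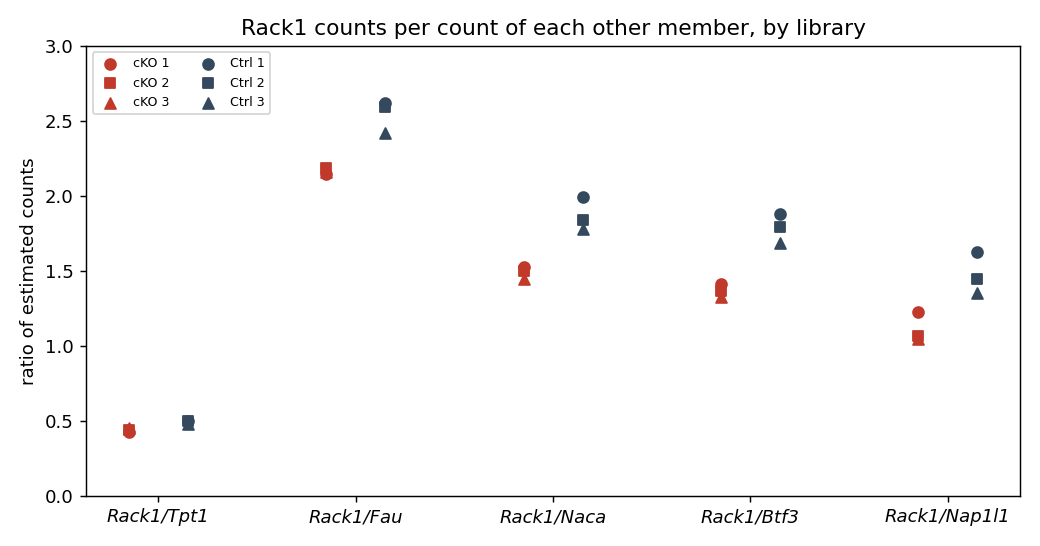
Estimated counts of Rack1 per count of each other member, by library, with cKO in red left of Ctrl in dark blue and the marker shape giving the replicate number. The groups are apart for all 5 ratios, most widely for Naca and Btf3 and least for Tpt1, where the lowest Ctrl value is 0.475 and the highest cKO value 0.449.

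Among all 14338 genes, 551 had a more negative log2 fold change than Rack1 in the blocked model, and 1752 one more negative than Tpt1. Of 903 genes with a mean of at least 200 CPM, which include all 6 members, 96 (10.6%) were called lower with the block, and 18 had a more negative value than Rack1. The members' 2 of 6 is to be read against that share too.

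Of 26 other TOP genes outside the ribosomal proteins, 9 were lower and none higher with the block, and 2 were lower without it, with a median log2 fold change of -0.07. The 2 were the elongation factor genes Eef1g, at 515 ± 28.4 CPM in cKO and 709 ± 64.0 CPM in Ctrl, and Eef2, at 2272 ± 8.03 CPM in cKO and 3020 ± 104 CPM in Ctrl (SD, n = 3 each). Named after their values were seen, Npm1, a nucleolar histone chaperone gene, and Pabpc1, the poly(A)-binding protein gene, were not called with the block, with log2 fold changes of 0.04 and -0.07. Whether this list differs from the 6 members was not tested.

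For the ribosomal proteins, whose mRNAs are the main TOP class, 23 of 77 genes were lower and none higher with the block, and 0 of 77 were called in either direction without it. The median log2 fold change was -0.13. Only 3 of the 77 had a blocked log2 fold change more negative than that of Rack1. Among those lower were Rpsa (-0.38) and Rps2 (-0.33) of the small subunit, and Rplp0 (-0.48), Rpl13 (-0.28) and Rpl7 (-0.24) of the large one. Rack1, itself on the small subunit, lay within this range, while Fau at -0.10 was near the list median.

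**Figure D5:**
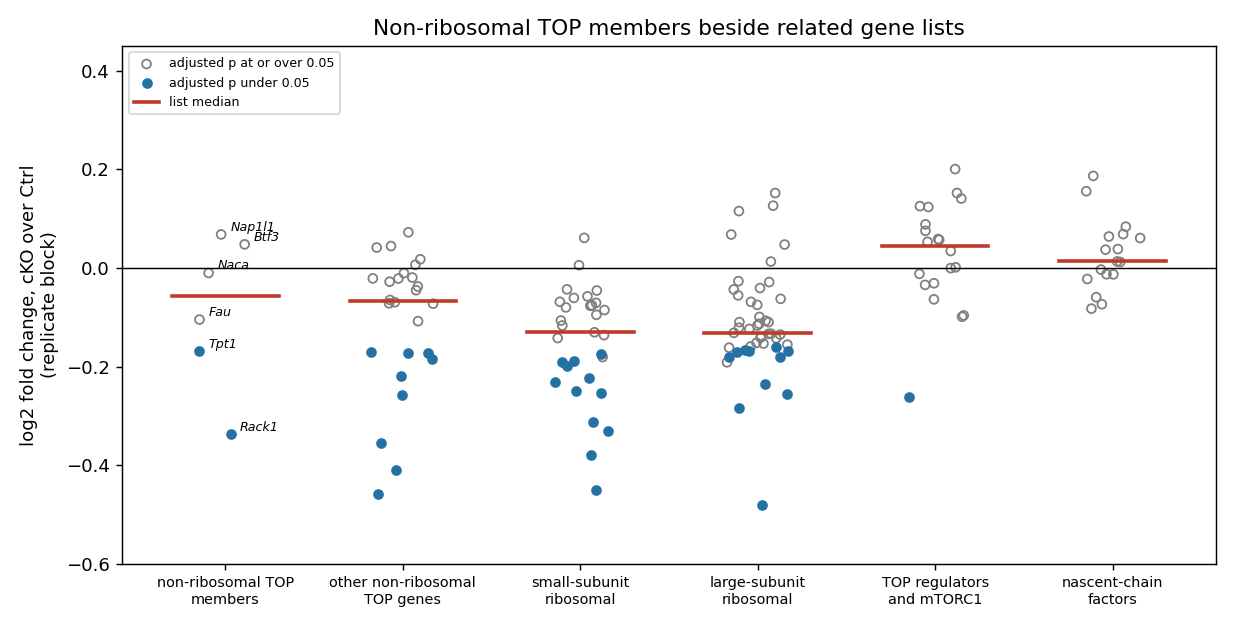
Log2 fold changes, cKO over Ctrl, from the model with the replicate block, for the 6 members and 5 lists of related genes. Filled points have an edgeR adjusted p under 0.05 and red lines are list medians, which lie at -0.06 for the members, -0.07 for the other TOP genes, -0.13 for both ribosomal lists, 0.04 for the TOP regulators and 0.01 for the nascent-chain factors.

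A list of 20 TOP regulators held the genes for LARP1 and its relatives, genes of the mTORC1 pathway, and Tia1, Tial1 and Cnbp. Of these 20, 1 was lower with the block and none without, and the median log2 fold change was 0.05 (0.04 with the block). The 1 was Mlst8, a subunit of both mTOR complexes, at 44.7 ± 2.34 CPM in cKO and 53.7 ± 2.43 CPM in Ctrl (SD, n = 3 each; log2 fold change -0.26, blocked edgeR adjusted p 0.0136). Larp1, named after its value was seen, had 195 ± 19.9 CPM in cKO and 187 ± 3.20 CPM in Ctrl (blocked log2 fold change 0.05, SE 0.06, edgeR adjusted p 0.690).

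Partners and relatives of single members were also examined. None of 17 factors that act on nascent chains beside Naca and Btf3 was called in either model. The most highly expressed were Nacad, a relative of Naca (log2 fold change 0.00), and Srp72, for a protein of the signal recognition particle (-0.01). Of 10 relatives of Nap1l1, 1 was lower with the block, Tspyl3, at 15.2 ± 1.75 CPM in cKO and 19.5 ± 2.84 CPM in Ctrl (SD, n = 3 each; log2 fold change -0.36, blocked edgeR adjusted p 0.0167). Rps27a, which encodes ubiquitin fused to a ribosomal protein as Fau encodes its ubiquitin-like part, had a log2 fold change of -0.07, and the polyubiquitin gene Ubb one of -0.10, and neither was called in either model.

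The 5 genes whose course over the 6 libraries was most like the mean of the members were found among 11879 other genes with at least 5 CPM. The measure was the root mean square difference of centred log2 CPM, which had a median of 0.145 over those genes. They were Arl6ip1 (0.0121), a gene for a protein that shapes the endoplasmic reticulum, Rpl17 (0.0148) and Mrps22 (0.0159), genes for a cytosolic and a mitochondrial ribosomal protein, Cops6 (0.0191), a subunit of the COP9 signalosome, and Prdx2 (0.0206), a peroxiredoxin. None was called in either model. Taken one by one, the members' own closest genes, chosen after seeing the data, were Rpsa for Rack1 (0.0318), Rpl15 for Tpt1 (0.0189), Rpl6 for Fau (0.0075), Mtch2 for Naca (0.0116), Rpl7l1 for Btf3 (0.0040) and Nrbf2 for Nap1l1 (0.0141). The closest genes of Rack1, Tpt1 and Fau encode cytosolic ribosomal proteins.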

How the data were processed

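RNA-seq libraries were made from dorsal root ganglia of 3 cKO and 3 Ctrl embryos. The labels' protocols name Trizol for total RNA and an mRNA library kit, and no source used here states whether strand was kept. GRCm38 (mm10) and the tools RSEM 1.3.1, HISAT2 2.2.1 and Bowtie2 2.4.5 appear in the submitters' processing notes with no role given. Per library, the authors deposited TPM and FPKM values beside estimated counts, which are not normalized. RefSeq names 7 pseudogenes of Tpt1 and 2 of Fau, none with a row in the table used here. How reads shared with them were assigned is not stated, so the counts of both genes are uncertain to that extent.

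Estimated counts were rounded, filtered with filterByExpr (3633 genes removed) and scaled by TMM. They were tested two-sided with edgeR 4.0.16 (R 4.3.3), using its robust quasi-likelihood F test and Benjamini-Hochberg adjustment over all genes, with a threshold of 0.05. The SE was derived from the F statistic. The scripts were tested on simulated data. TPM served for levels, and FPKM with counts for effective lengths. The authors' group means were not used.

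The series text calls the controls littermates. For the 3 numbers, the 2 libraries' deviations from group means had correlations of 0.328, 0.205 and 0.184 over genes, and numbers were taken as pairs. Libraries with different numbers were not correlated, so these values cannot show that the numbers pair the libraries. The calls with the block rest on that pairing. The main model has no block. Blocked values are printed for every member, whether or not its call changes, and for other genes and lists where stated. The members and lists were chosen with earlier results of these data known. Genes are named by a rule: the members, Ybx1, up to 4 called genes a list (where none is called, the 2 with the highest CPM), and the 5 most alike. A few of these are left unreported. Listed snoRNA host genes were not analysed here. Alternatives were other scalings, filters and tests (DESeq2 1.42.0, limma 3.58.1), the block, a length offset, and libraries left out. P-values without the block cover the spread between these libraries, and those with it the spread left within the numbered pairs.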

Additional observations from a re-analysis of the deposited data

How the results depend on the processing

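Rack1 kept a negative log2 fold change in all settings tried, as did Tpt1 and Fau, and Nap1l1 a positive one. On leaving out single libraries with no block, Rack1 ran from -0.44 to -0.24, Tpt1 from -0.29 without cKO replicate 1 to -0.08 without Ctrl replicate 1, and Fau from -0.21 to -0.03 without the same libraries. With no replicate block, the number of genes called was 69 and moved to 44 with library totals, 172 with DESeq2, 128 with no filter, 731, 8 and 2 with both libraries numbered 1, 2 or 3 left out, and 18 to 104 on leaving out single libraries. With the replicate block it was 764, with the length offset 804, and with both libraries numbered 1, 2 or 3 left out 1252, 260 and 836. Blocked models with DESeq2 size factors, library totals and upper quartile scaling, added after seeing the data as were the blocked models without pairs 2 and 3, called 731, 799 and 801.

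The number of members called lower was 0 with no block, 1 with DESeq2 and 0 to 1 on leaving out single libraries, where the 1 was Rack1 without cKO replicate 1 (edgeR adjusted p 0.0383). It was 2 with the replicate block, with the block and the length offset, without both libraries numbered 1 in either model, and with the block and DESeq2 size factors or upper quartile scaling. It was 1 with the block and library totals or without pair 2 or pair 3. No member was called higher in any setting. The members' median log2 fold change ran from -0.15 without cKO replicate 1 to 0.00544 without Ctrl replicate 1. Naca changed sign, to 0.0188 with library totals, 0.000611 with upper quartile scaling, 0.0178 without both libraries numbered 2 (0.0163 with the block), 0.0162 with the block and library totals, 0.00482 on log2(TPM + 1) and 0.00483 on log2(TPM + 0.1), and it ran from -0.0872 to 0.0393 on leaving out single libraries. Btf3 ran from -0.0235 to 0.105 there. The causes of these moves were not tested. The order of levels was the same in FPKM. Leaving out single libraries leaves a group with 2. Counts per member were 3931 or more in each library. How counting error compares with the spread between libraries or within pairs was not tested.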
